A study of Sus scrofa with 6 samples.

Results

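The extracellular matrix genes described here are the collagens, laminins, fibronectin, fibrillins, fibulins and nidogens of whole pig embryos. Members were the transcript rows whose deposited best protein match named a collagen alpha chain, a laminin subunit, a fibronectin isoform, a fibrillin, a fibulin or a nidogen, plus the rows of fibronectin (FN1) and of collagen type III alpha 1 (COL3A1). The rule found 96 of 20523 rows, which carried 62 gene symbols, because 23 of these genes were split over several rows. Reads sufficed to test 68 rows of 50 genes, and 28 rows had at most 12 reads in any library. A row's length in bp is given beside the symbol wherever a gene had several rows.

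The study compared 3 mutant (QQ) with 3 wild-type (WT, qq) embryos. QQ embryos were homozygous for the mutant alleles of the quantitative trait nucleotides of VRTN, the gene of vertnin, which is tied to vertebral number in pigs. All 6 were Large White embryos of 17.5 to 18.0 days post coitum, genotyped from their extra-embryonic tissue, and total RNA of each gave 1 TruSeq library. As litter and dam are not named, every p-value speaks of variation among these 6 embryos alone, which may in part be technical.

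The matrix is the protein scaffold that cells secrete around themselves. Fibrillar collagens form cross-striated fibrils of mesenchyme, tendon, bone and cartilage, whereas type IV collagen and laminin each build a network that nidogen helps to join into the basement membrane under epithelia and around vessels, nerve and muscle. Fibronectin is the provisional matrix on which mesodermal cells move and somites form, and fibrillins make the microfibrils that hold growth factors of the TGF-beta family.

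Libraries held 13.5, 12.6 and 12.2 (in units of 1000000 uniquely mapped reads) in QQ replicates 1 to 3, and 12.5, 12.8 and 13.4 in WT replicates 1 to 3. WT replicate 3 stood apart on the first principal component of all rows (57.7% of the variance), at -61.7, while QQ replicates 1 to 3 lay at 10.9, 28.9 and 30.0 and the other WT libraries at -9.12 and 1.00. VRTN had 2, 0 and 1 reads in QQ and 0, 0 and 0 reads in WT libraries, too few to check the labels. Levels are in RPKM, reads per kilobase of row and per 1000000 reads of the library. A log2 fold change is QQ minus WT on counts scaled by TMM, a between-library factor of 0.933 to 1.06, with its standard error (SE) from edgeR's quasi-likelihood test. In such bulk RNA, fewer cells of a type and less RNA per cell cannot be told apart.

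Matrix rows mostly had higher values in QQ embryos, by amounts that the test across all rows did not separate from the spread between embryos. At an adjusted p of 0.05, edgeR called 0 of 68 rows higher and 0 lower in QQ (0% and 0% of the 13957 rows tested), and the smallest adjusted p of a member was 0.233. At an unadjusted p under 0.05, 12 of 68 rows (17.6%) were higher, against 11% of all tested rows, and 2 rows (2.94%) were lower, against 9.3% of all tested rows. The 12 rows came from 10 genes, all 12 had every QQ library above every WT library, and all 12 had their lowest value in WT replicate 3. DESeq2 called 2 rows higher (0.738% of all rows were) and 0 lower (0.0573%), namely the 627 bp row of FBN2 and the 2031 bp row of COL5A1, and placed 14 higher and 1 lower with an unadjusted p below 0.05 (11.3% and 7.85% of all rows).

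The size of that excess depended on how rows and libraries were used. With the rows of each gene summed, a choice made after seeing the data, 4 of 51 genes (7.84%) were higher and 0 lower by that unadjusted threshold, against 11% and 9.29% of all genes and rows then tested. The 4 were FBN2, COL12A1, COL4A5 and LAMC1. Without WT replicate 3 there were 9 higher rows (13.2%, against 8.55% of all rows) and 1 lower row (1.47%, against 5.15%), and 8 of the 12 rows were among the 9; the adjusted test then called 0 members, with 0.00703% of all rows called higher. Without QQ replicate 3 there were 4 higher rows (5.71% of 70, against 5.02%) and 1 lower row (1.43%, against 2.7%), and the 4 belonged to FBN2, COL5A1 and COL12A1. The lower row was a little-read one of COL17A1 that the test of all 6 libraries left out, and it passed the filter here only through its WT counts. With each library's trend with row length removed there were 9 higher and 3 lower rows (13.2% and 4.41%, against 8.86% and 13.5%). The adjusted DESeq2 calls were 2 member rows without QQ replicate 1 (0.545% of all rows called higher), 0 without QQ replicate 2 (0.0215%), 0 without QQ replicate 3 (0%), 2 without WT replicate 1 (0.344%), 4 without WT replicate 2 (4.97%) and 1 without WT replicate 3 (1.2%). Each of these DESeq2 counts is of rows higher in QQ embryos.

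The median log2 fold change of the 68 rows was 0.17, beside -0.003 for all tested rows. It stayed above 0 under the other settings, at 0.11 without WT replicate 3 and at 0.06 after removal of the length trend, where the median of all rows lay at -0.08. Of the 68 rows, 48 had a log2 fold change above 0 (70.6%, against 49.7% of all tested rows). Every QQ value exceeded every WT value in 18 rows (26.5%, against 18.8% of all), and the opposite held in 1 row (1.47%, against 9.07% of all). Matrix rows were longer than most, with a median of 2826 bp against 1974 bp for all tested rows.

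**Figure D1:**
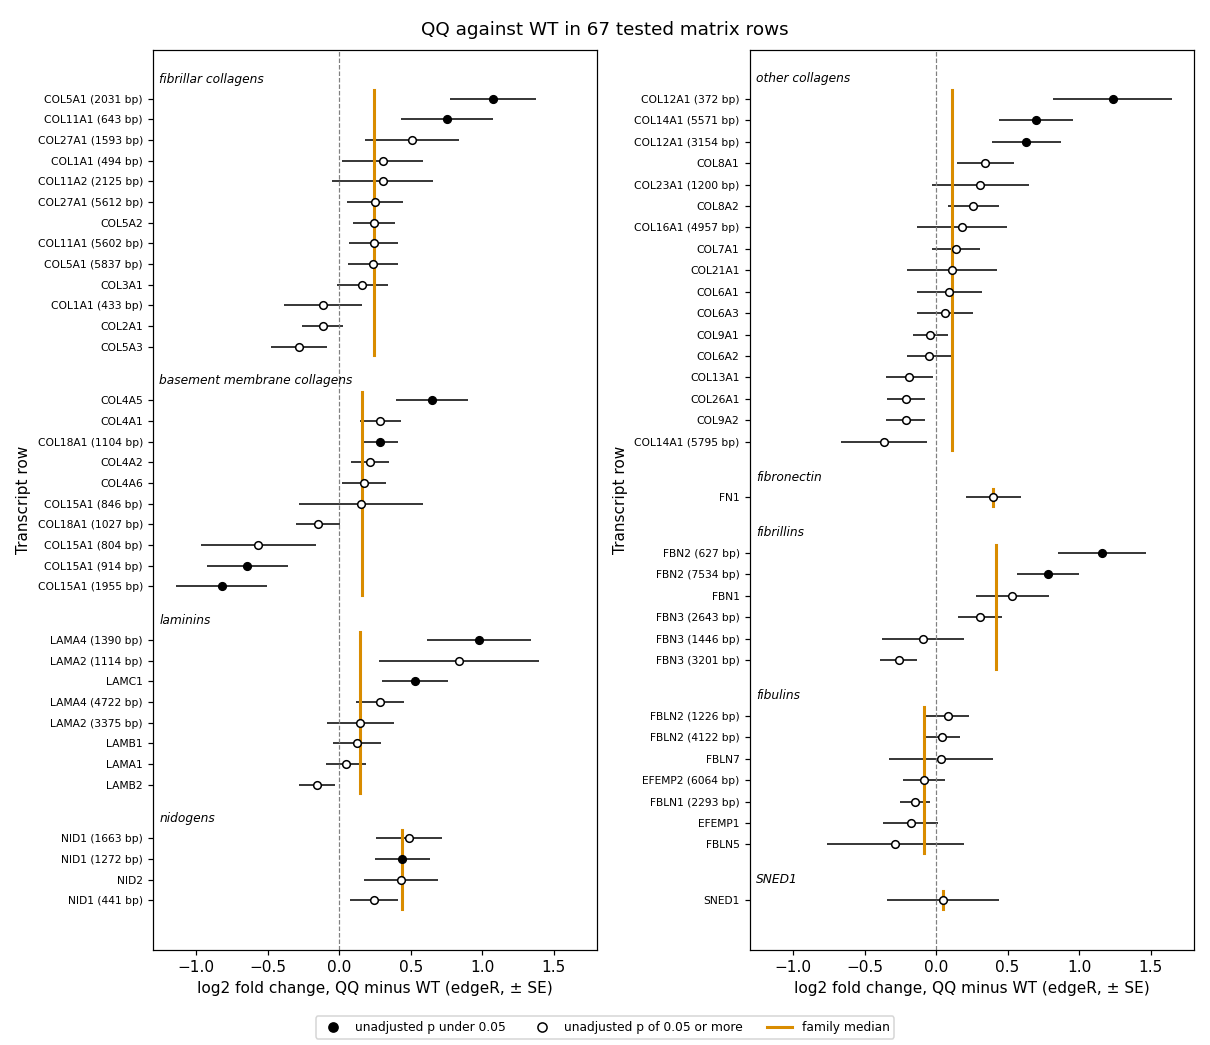
Log2 fold change, QQ minus WT, with its SE from edgeR for 67 of the 68 tested rows (n = 3 embryos per genotype), grouped by family; filled points have an unadjusted p under 0.05, open points do not, and orange bars mark family medians over all tested rows. Nidogen (4 rows of 2 genes) and fibrillin (6 rows of 3 genes) medians lie at 0.44 and 0.42. Without WT replicate 3 they lie at 0.24 and 0.25. The fibulin median lies at -0.08, and no row passed the adjusted threshold.

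Some fibrillar collagens were among the most abundant transcripts of these embryos, whereas COL5A3 and COL11A2 (2125 bp) had means of only 1.15 and 0.57 RPKM. COL3A1, the fibril collagen of soft embryonic mesenchyme, ranked 86 among all rows by mean RPKM. It had 1233, 916 and 1334 RPKM in QQ and 1160.2, 989.9 and 781 RPKM in WT embryos. The genotypes overlapped: QQ replicate 3 was the highest and WT replicate 3 the lowest, while QQ replicate 2 lay below 2 of the WT libraries. Its log2 fold change was 0.16 ± 0.18 (SE; adjusted p = 0.601, edgeR).

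Type I and type II collagen had small differences, and the sign for COL1A1 and COL2A1 depended on the row or the setting. COL1A1, the main collagen of bone and tendon, was present only as fragments in the table, and its most-read row (433 bp) had 406, 171 and 302 RPKM in QQ and 342, 304 and 257 RPKM in WT embryos. The widest gap lay within the QQ group, between replicates 1 and 2, and the log2 fold change of -0.12 ± 0.27 changed sign without QQ replicate 2 (0.17). Its 494 bp row had 98.2, 48.6 and 92.5 RPKM in QQ and 72.9, 68.3 and 42.4 RPKM in WT embryos, which overlapped (0.30 ± 0.28). Summed over its rows COL1A1 had -0.03 ± 0.27. COL2A1, the collagen of notochord and cartilage, had 136, 146 and 134 RPKM in QQ and 154, 113 and 155 RPKM in WT embryos, with the QQ values inside the WT range. Its log2 fold change of -0.12 ± 0.14 became 0.05 under quantile scaling. The partner chain of type I collagen, COL1A2, fell outside the rule because of its protein description, and had 273, 156 and 224 RPKM in QQ and 246, 215 and 187 RPKM in WT embryos (log2 fold change -0.07 ± 0.20).

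Types V and XI collagen, which nucleate fibrils and limit their diameter, had mostly small positive differences in the rows that held most reads. COL5A2 had 154, 144 and 169.8 RPKM in QQ and 146, 130.2 and 95.6 RPKM in WT embryos, and the long row of COL5A1 (5837 bp) had 144, 114 and 165 RPKM in QQ and 128, 123 and 86.6 RPKM in WT embryos. Both overlapped between genotypes, with log2 fold changes of 0.24 ± 0.15 and 0.23 ± 0.18. The long row of COL11A1 (5602 bp) had 0.24 ± 0.17. Without WT replicate 3 these became 0.10 for COL5A2, 0.09 for COL5A1 and 0.07 for COL11A1. COL5A3, a minor chain at about 1 RPKM, had -0.28 ± 0.19.

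Short rows of the same genes had larger differences. The 2031 bp row of COL5A1 had 13.3, 17.6 and 29.8 RPKM in QQ and 8.51, 12.2 and 6.19 RPKM in WT embryos. All QQ values lay above all WT values, QQ replicate 3 was the highest, and the closest pair was QQ replicate 1 and WT replicate 2. Its log2 fold change was 1.07 ± 0.30 (unadjusted p = 0.00582, edgeR adjusted p = 0.233; DESeq2 adjusted p = 0.0377). Reads covered only 27.4% to 28.4% of that row, and the DESeq2 adjusted p stayed under the threshold without QQ replicate 1 (0.0121) or WT replicate 2 (0.0044). It was 0.133 without WT replicate 1, 0.368 without QQ replicate 2, 0.409 without WT replicate 3 and 0.663 without QQ replicate 3. The 643 bp row of COL11A1 had 33.6, 34.0 and 41.4 RPKM in QQ and 26.8, 25.2 and 9.14 RPKM in WT embryos, a log2 fold change of 0.75 ± 0.32 that was 0.41 without WT replicate 3. In all, 10 of 13 tested fibrillar rows had log2 fold changes above 0, with a median of 0.24. That median was 0.09 without WT replicate 3 and 0.40 without WT replicate 1. With the length trend removed it was 0.09, where the median of all tested rows was -0.08.

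**Figure D2:**
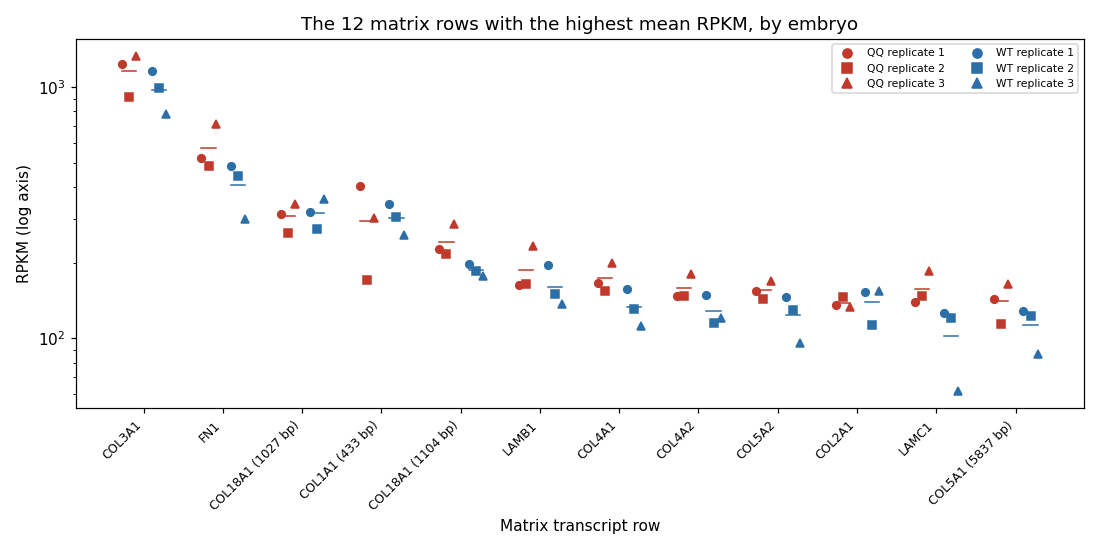
RPKM (log axis) of the 12 matrix rows with the highest mean, from COL3A1 down to the long row of COL5A1, one marker shape per replicate number, QQ embryos in red left of WT embryos in blue, with horizontal bars at the mean of 3 embryos. QQ and WT values overlap in most rows; LAMC1 and the 1104 bp row of COL18A1 have all QQ values above all WT values.

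The fibril-associated and other non-fibrillar collagens split between both directions, 11 of 17 tested rows being above 0, with a median of 0.11 that was -0.02 under quantile scaling and 0.01 to 0.21 when each library was left out. COL12A1, which sits on the surface of type I fibrils in dense connective tissue, had the largest differences. Its 3154 bp row had 19.4, 21.8 and 25.9 RPKM in QQ and 18.8, 13.8 and 8.23 RPKM in WT embryos, a log2 fold change of 0.63 ± 0.24 (unadjusted p = 0.026, edgeR adjusted p = 0.233). Its 372 bp row had 15.6, 20.5 and 21.8 RPKM in QQ and 9.68, 11.1 and 2.40 RPKM in WT embryos, a log2 fold change of 1.23 ± 0.41 that was 0.81 without WT replicate 3. In both rows the QQ values lay above the WT values, narrowly in the longer one, and WT replicate 3 was far below the other WT libraries.

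COL14A1, a relative of COL12A1, gave opposite signs in its rows, which were both under 2 RPKM. The 5571 bp row had a log2 fold change of 0.70 ± 0.26 and the 5795 bp row one of -0.37 ± 0.30, and summed they gave -0.09. Cartilage collagen IX had nearly equal levels: COL9A1 had 30.4, 35.7 and 27.3 RPKM in QQ and 32.5, 29.6 and 27.8 RPKM in WT embryos, with a log2 fold change of -0.04 ± 0.12. The beaded-filament collagen VI chains COL6A1, COL6A2 and COL6A3 had log2 fold changes of 0.09 ± 0.23, -0.05 ± 0.16 and 0.06 ± 0.19. COL26A1 was the most abundant of this group, at 63.4, 60.4 and 56.8 RPKM in QQ and 62.3, 59.3 and 73.6 RPKM in WT embryos, which overlapped.

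Among basement membrane collagens, the chains of type IV had higher and those of COL15A1 mostly lower values in QQ embryos. COL4A1 had 167, 154 and 199 RPKM in QQ and 158, 131 and 112 RPKM in WT embryos, and its partner COL4A2 had 147, 148 and 181 RPKM in QQ and 148, 115 and 121 RPKM in WT embryos. In each gene only WT replicate 1 reached into the QQ range. The log2 fold changes were 0.29 ± 0.14 and 0.21 ± 0.13 (edgeR adjusted p = 0.277 and 0.356).

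COL4A5, the X-linked chain that replaces the major chains in some basement membranes, had 45.8, 55.3 and 64.3 RPKM in QQ and 40.4, 39.9 and 18.9 RPKM in WT embryos over a 760 bp row. The groups did not overlap, and the log2 fold change was 0.65 ± 0.25 (unadjusted p = 0.0282, edgeR adjusted p = 0.233), or 0.38 without WT replicate 3. COL4A6, its neighbour in the RefSeq gene order, had 19.2, 24.1 and 30.6 RPKM in QQ and 22.9, 19.4 and 18.9 RPKM in WT embryos, which overlapped (0.17 ± 0.15).

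COL18A1, whose C-terminal fragment is endostatin, had 2 abundant rows that disagreed. The 1104 bp row had 228, 216 and 285 RPKM in QQ and 198, 185 and 177 RPKM in WT embryos, without overlap, and a log2 fold change of 0.29 ± 0.12 (unadjusted p = 0.0461). The 1027 bp row had 313, 262 and 342 RPKM in QQ and 319, 272 and 359.7 RPKM in WT embryos, and -0.15 ± 0.15. The direction of the 1027 bp row was not stable, at 0.06 under quantile scaling. The gene summed over both rows, which mixes their opposite directions, had 0.03.

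COL15A1, a related collagen of basement membranes in muscle and vessels, supplied both rows that were lower at an unadjusted p under 0.05. The 1955 bp row had 2.81, 1.75 and 1.51 RPKM in QQ and 3.52, 2.39 and 4.18 RPKM in WT embryos, a log2 fold change of -0.82 ± 0.32 (unadjusted p = 0.0287, edgeR adjusted p = 0.233). The 914 bp row had 2.11, 1.57 and 1.43 RPKM in QQ and 2.45, 2.98 and 2.12 RPKM in WT embryos, and was the only tested member whose QQ values all lay below its WT values, with QQ replicate 1 and WT replicate 3 almost equal. The other COL15A1 rows had log2 fold changes of -0.57 ± 0.40 and 0.15 ± 0.43, and the gene summed over its rows had -0.53 ± 0.27 (unadjusted p = 0.082). Over the 10 basement membrane collagen rows the median was 0.16, and 0.01 to 0.24 when each library was left out. After removal of the length trend it was -0.003, where the median of all tested rows was -0.08.

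Laminins are trimers of an alpha, a beta and a gamma chain, and in the mouse the early embryo uses mainly the chains LAMA1, LAMB1 and LAMC1. LAMC1, the gamma chain shared by most laminins, had 139.6, 147 and 186 RPKM in QQ and 126, 121 and 61.7 RPKM in WT embryos. The groups did not overlap, QQ replicate 1 and WT replicate 1 being closest and WT replicate 3 far below. The log2 fold change was 0.53 ± 0.23 (unadjusted p = 0.0447, edgeR adjusted p = 0.24), or 0.28 without WT replicate 3.

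Its partners had smaller differences. LAMB1 had 163, 165 and 232 RPKM in QQ and 195, 149.9 and 137 RPKM in WT embryos, and LAMA1 had 52.5, 54.6 and 66.0 RPKM in QQ and 62.1, 45.3 and 49.3 RPKM in WT embryos. Both overlapped, with log2 fold changes of 0.12 ± 0.17 for LAMB1 and 0.05 ± 0.14 for LAMA1. Leaving out QQ replicate 3 gave -0.05 for each. LAMB2, the beta chain of neuromuscular and kidney basement membranes, had -0.16 ± 0.12. LAMA4, the alpha chain of vessel walls, had 0.28 ± 0.17 in its 4722 bp row. Its 1390 bp row had 0.97 ± 0.36 (edgeR adjusted p = 0.233), with 9.66, 8.52 and 14.9 RPKM in QQ and 6.10, 7.40 and 2.35 RPKM in WT embryos. That row had 0.63 without WT replicate 3, and the rows of LAMA4 summed had 0.36 ± 0.17. LAMA2, the alpha chain of muscle, had 1.23, 1.34 and 1.89 RPKM in QQ and 1.16, 1.20 and 1.39 RPKM in WT embryos in its 3375 bp row, with 0.15 ± 0.23. Of 9 tested laminin rows 8 were above 0, with a median of 0.15, and without QQ replicate 3 these were 5 rows and 0.11. The median was 0.27 without WT replicate 1.

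Nidogens, rod-shaped linkers that bind laminin and type IV collagen, had higher values in QQ embryos in all tested rows. NID2 had 91.5, 75.4 and 149.6 RPKM in QQ and 91.8, 77.3 and 51.7 RPKM in WT embryos. QQ replicates 1 and 2 lay within the WT range and QQ replicate 3 far above it, and the log2 fold change was 0.43 ± 0.26. The 1272 bp row of NID1 had 56.4, 58.7 and 77.9 RPKM in QQ and 56.2, 45.8 and 31.6 RPKM in WT embryos, 0.44 ± 0.19 (unadjusted p = 0.0474, edgeR adjusted p = 0.242), with QQ replicate 1 and WT replicate 1 almost equal. All 4 nidogen rows, which came from only 2 genes, were above 0. Their median was 0.44, and it was 0.24 without WT replicate 3 and likewise 0.24 without QQ replicate 3. In all 4 rows WT replicate 3 was the lowest library.

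FN1 ranked 157 among all rows and had 522, 485 and 716 RPKM in QQ and 485, 441 and 299 RPKM in WT embryos, or 574 ± 124 and 409 ± 97.2 RPKM (SD, n = 3 each). QQ replicate 2 and WT replicate 1 were equal to 3 digits, QQ replicate 3 was the highest and WT replicate 3 the lowest. The log2 fold change was 0.40 ± 0.19 (edgeR adjusted p = 0.262), or 0.24 without WT replicate 3. Reads covered 99.5% to 99.6% of its 8144 bp row in every library.

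Fibrillin rows, which came from only 3 genes, had a median of 0.42, with 4 of 6 above 0, and a median of 0.25 without WT replicate 3. FBN2, the fibrillin most used before birth, had the smallest p of all members. Its 627 bp row had 48.1, 73.9 and 72.9 RPKM in QQ and 33.6, 34.9 and 13.4 RPKM in WT embryos, or 65.0 ± 14.6 and 27.3 ± 12.1 RPKM (SD, n = 3 each). All QQ values lay above all WT values, and QQ replicate 1 was the lowest of the QQ libraries. The log2 fold change was 1.16 ± 0.31 (unadjusted p = 0.00388, edgeR adjusted p = 0.233; DESeq2 adjusted p = 0.0266), or 0.84 without WT replicate 3.

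The DESeq2 adjusted p of that row was 0.00273 without WT replicate 3, 0.00559 without WT replicate 2, 0.0203 without QQ replicate 1 and 0.0451 without WT replicate 1, but 0.536 without QQ replicate 2 and 0.663 without QQ replicate 3. The 7534 bp row of FBN2 had 0.738, 0.992 and 0.902 RPKM in QQ and 0.467, 0.568 and 0.395 RPKM in WT embryos (0.78 ± 0.21). Its reads covered only 1.21% to 1.27% of the row, so that it added little about the rest of the transcript. FBN1, the fibrillin that persists in adult tissue, had 17.6, 17.7 and 20.8 RPKM in QQ and 14.4, 15.7 and 6.50 RPKM in WT embryos, without overlap (0.53 ± 0.26, edgeR adjusted p = 0.264; 0.24 without WT replicate 3). FBN3 had -0.26 ± 0.13 in its most-read row (3201 bp) and 0.31 ± 0.16 in its 2643 bp row, and -0.16 ± 0.12 summed over its rows.

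Fibulins, which link elastic fibres and basement membranes, had small differences, from -0.28 to 0.08. FBLN1, the most abundant, had 113, 109 and 116 RPKM in QQ and 121, 111 and 120.1 RPKM in WT embryos, or 113 ± 3.66 and 117 ± 5.64 RPKM (SD, n = 3 each), with a log2 fold change of -0.15 ± 0.11. FBLN2 (4122 bp row), EFEMP1 and EFEMP2 had 0.04 ± 0.13, -0.18 ± 0.19 and -0.08 ± 0.15. The family median was -0.08, with 3 of 7 rows above 0, and 0.001 without WT replicate 3. FBLN5, needed for elastic fibres, and FBLN7 were at about 1 RPKM or less and had signs that changed between settings. SNED1, which the rule took in through its description, was at 0.204 to 0.521 RPKM in QQ and 0.247 to 0.354 RPKM in WT embryos.

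Several matrix genes of later tissues were close to absent. The 12 genes with no tested row, not all of them close to absent, were COL4A3, COL4A4, COL6A5, COL10A1, COL17A1, COL19A1, COL22A1, COL25A1, COL28A1, LAMA3, LAMB3 and LAMC3. COL10A1, the collagen of hypertrophic cartilage, had 4 reads over all 6 libraries. LAMA3 and LAMB3, laminin chains of epithelial basement membranes, had 15 and 7 reads, so that no difference between genotypes was detectable in these genes at this depth. The most-read row of COL17A1 (2020 bp), the hemidesmosome collagen, had 1, 6 and 1 reads in QQ and 11, 7 and 11 reads in WT libraries. Every QQ count lay below every WT count, but the row was too little read for the test of all 6 libraries. Without QQ replicate 3 it entered that test, with a log2 fold change of -1.53 (unadjusted p = 0.04996, edgeR adjusted p = 0.526). It met the filter's minimum only through WT libraries, where it was higher, so that p-value gives no support for a lower level in QQ. COL25A1 was not close to absent, with means of 1.30, 1.29 and 0.94 RPKM in rows of 391, 332 and 412 bp. These short rows had at most 11 reads per row and library, and summed they had a log2 fold change of 0.61 ± 0.54.

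Embryos of 1 genotype did not behave alike. WT replicate 3 was the lowest library in 35 of 68 rows (51.5%, against 41.4% of all tested rows), and QQ replicate 3 was the highest in 33 (48.5%, against 24.2%). Matrix rows took 1.90%, 1.67% and 2.28% of the reads in QQ and 1.83%, 1.58% and 1.28% in WT libraries. The share in QQ replicate 2 was lower than that in WT replicate 1, so the genotypes overlapped. The median deviation of a member from its own mean over libraries, on the log2(RPKM + 0.5) scale, was 0.11, 0.02 and 0.26 in QQ and 0.06, -0.08 and -0.28 in WT libraries. In the 47 rows with a mean of at least 5 RPKM, the median Pearson r over the 6 libraries was 0.527 among 1081 pairs of rows, 69.6% of them above 0, which describes rows that share libraries.

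**Figure D3:**
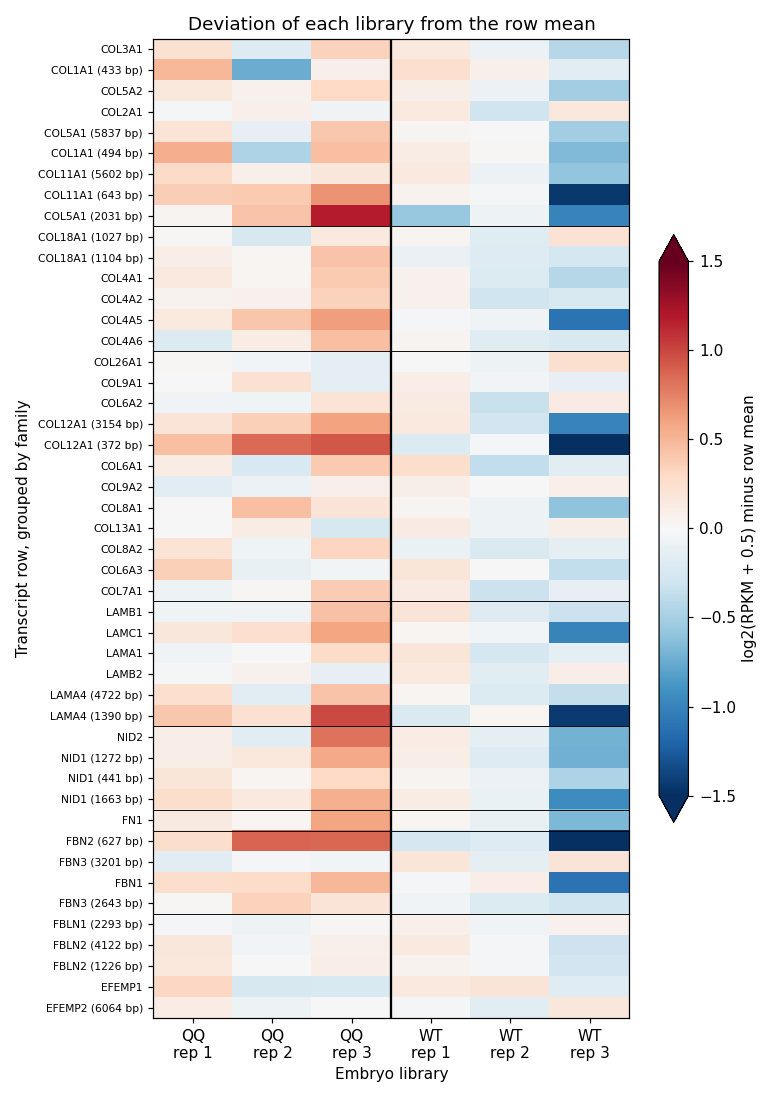
Heat map of log2(RPKM + 0.5) minus the row mean for the 47 matrix rows with a mean of at least 5 RPKM, with QQ embryos left of WT embryos and families separated by lines. WT replicate 3 is the bluest column, with the lowest values in FBN2, COL12A1, COL11A1 (643 bp) and LAMA4 (1390 bp), QQ replicate 3 is the reddest, and the fibulin rows at the bottom are pale throughout.

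Rows of the same gene offered an internal comparison, since they share cells and library. In 14 genes with 2 or more tested rows, the ratio of the second most-read row to the most-read row was compared between genotypes. Its mean log2 value was higher in QQ in 13 of the 14 (55.1% of the 227 genes of the table with such rows were). Every QQ ratio exceeded every WT ratio in 5 of 14, against 16.7% of those 227 genes, and 0 had the opposite, against 9.25%. The 5 were COL1A1, COL11A1, COL14A1, COL18A1 and FBN3, each with an exact two-sided permutation p of 0.1, the smallest that 3 against 3 libraries allow (Benjamini-Hochberg 0.28 over the 14). In 10 of the 14 the ratio was lowest in WT replicate 3.

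The ratios show how unequal the rows of a gene were. In COL18A1 the log2 ratio was -0.46, -0.28 and -0.26 in QQ and -0.69, -0.55 and -1.02 in WT libraries. In LAMA4 it was -1.21, -0.97 and -0.77 in QQ and -1.64, -1.13 and -2.62 in WT libraries. In 4 genes the log2 fold changes of the 2 rows had opposite signs, and the widest gap between them, in COL14A1, was 1.06. How the counting shared out reads among overlapping rows is not given in the sources used here.

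**Figure D4:**
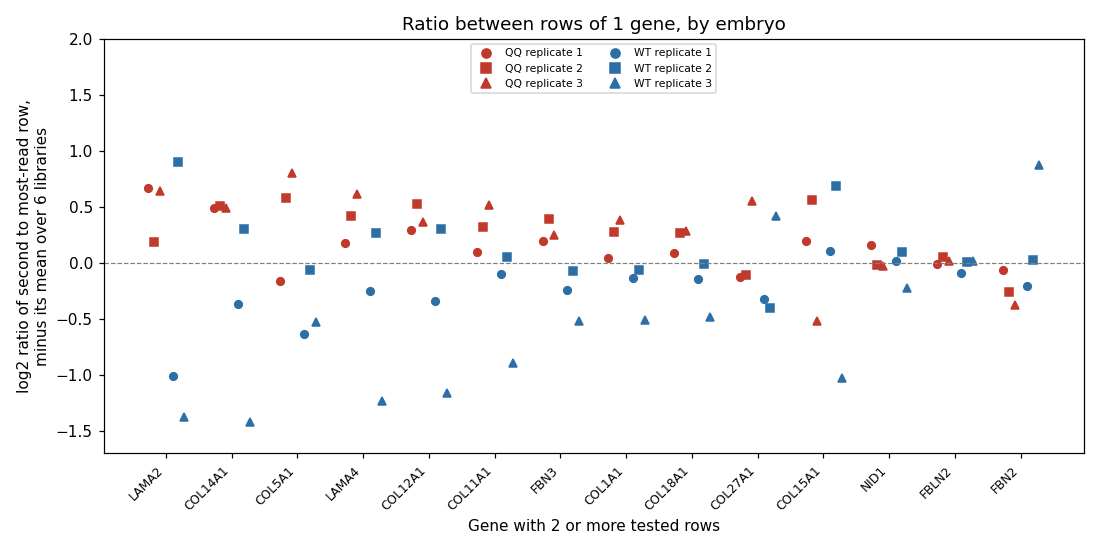
Log2 ratio of the RPKM of the second to the most-read row of each of 14 matrix genes, minus its mean over the 6 libraries, with QQ embryos in red left of WT embryos in blue and genes ordered by the QQ minus WT difference. WT replicate 3 (blue triangles) lies lowest in 10 of the 14 genes, and in 13 the QQ mean is the higher one.

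Ratios between partner chains, or between related genes that are not partners, such as the fibrillins, were compared over 11 pairs. Each gene was represented by its most-read row. LAMC1 over LAMB1 was 0.857, 0.894 and 0.802 in QQ and 0.645, 0.805 and 0.451 in WT embryos (exact two-sided permutation p = 0.2, Benjamini-Hochberg 0.733). FBN2 over FBN1 was 2.74, 4.17 and 3.51 in QQ and 2.34, 2.22 and 2.06 in WT embryos, and FBN1 over FBN3 was 0.915, 0.831 and 0.987 in QQ and 0.584, 0.803 and 0.262 in WT embryos. These 2 ratios did not overlap between genotypes, with an exact permutation p of 0.1 each, the smallest possible (Benjamini-Hochberg 0.55). They rest on the 627 bp row of FBN2 and the 3201 bp row of FBN3. The 2643 bp row of FBN3 differed in the other direction (log2 fold change 0.31, against -0.26 for the 3201 bp row), and its ratio was not tested. The obligate partners COL4A1 and COL4A2 kept a ratio of 1.09 ± 0.044 in QQ and 1.04 ± 0.103 in WT embryos (SD, n = 3 each; exact permutation p = 0.6). COL5A1 over COL5A2 was 0.898 ± 0.0957 in QQ and 0.910 ± 0.0361 in WT embryos (SD, n = 3 each; exact permutation p = 0.9).

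Genes that process, bind or accompany these proteins were counted in 5 lists, and none passed edgeR's adjusted threshold. Proteoglycan core proteins and hyaluronan genes had 4 of 19 tested genes higher (21.1%, against 11% of all tested rows) and 0 lower (against 9.3%) by the unadjusted threshold of 0.05. Their median log2 fold change was 0.16, and 0.05 without WT replicate 3. Among them were the basement membrane heparan sulfate proteoglycan HSPG2 (perlecan), with 43.5, 48.4 and 64.0 RPKM in QQ and 41.3, 26.8 and 24.1 RPKM in WT embryos (0.66 ± 0.20), and the collagen-binding lumican LUM (0.68 ± 0.23). Matrix receptors had 2 of 19 higher (10.5%, near the 11% of all rows) and 0 lower, with a median of 0.16. The 2 were the collagen and laminin-binding integrin chain ITGA1 at 1.00 ± 0.34 and the laminin receptor DAG1 at 0.34 ± 0.15.

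Collagen processing genes had 3 of 32 higher and 3 lower (9.38% each, near the 11% and 9.3% of all rows), with a median of -0.05. Its smallest p values belonged to the prolyl hydroxylases P3H1 and P4HA2, which modify collagen chains before they fold, with -0.36 ± 0.12 and -0.46 ± 0.17. P3H1 had 39.2, 38.6 and 40.4 RPKM in QQ and 51.1, 41.1 and 49.7 RPKM in WT embryos, without overlap. The remaining lower gene was the little-read P4HA3 (-1.09 ± 0.45). The 3 higher genes were LOX (1.08 ± 0.44, or 0.66 without WT replicate 3), CREB3L2 (0.57 ± 0.24) and MIA3 (0.37 ± 0.15). Other matrix glycoproteins had 3 of 39 higher and 1 lower (7.69% and 2.56%, against 11% and 9.3% of all rows; median 0.01), among them MMRN1 (0.48 ± 0.15) and LTBP2 (0.77 ± 0.27). Proteases with their inhibitors had 4 of 26 higher and 1 lower (15.4% and 3.85%, against the same shares; median -0.08), among them MMP16 (0.84 ± 0.30) and ADAMTS19 (0.81 ± 0.27). Over the 5 lists together 16 of 135 genes were higher and 5 lower (11.9% and 3.7%), so the share of higher genes was near that of all rows. These became 9 and 2 (6.67% and 1.48%, against 8.55% and 5.15%) if WT replicate 3 was left out, and 5 and 2 (3.7% and 1.48%, against 5.02% and 2.7%) if QQ replicate 3 was.

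Markers of the tissues that could supply these transcripts also differed between embryos. Of 16 tested erythroid markers all 16 had log2 fold changes below 0 (median -0.60), with a summed level of 78.5 to 789 RPKM in QQ and 495 to 1587 RPKM in WT libraries; without WT replicate 1 the median was -0.03, with 7 of 16 above 0. All 11 tested muscle markers were below 0 (median -0.36), summed to 939 to 1015 RPKM in QQ and 992 to 1308 RPKM in WT libraries. Of 20 tested markers of yolk sac and visceral endoderm, an epithelium that lays down much basement membrane, 18 were above 0 (median 0.23), summed to 971 to 2519 RPKM in QQ and 987 to 1782 RPKM in WT libraries. That direction hung on single libraries: without QQ replicate 3 the median was -0.64, with 6 of 20 above 0, and without WT replicate 3 it was 0.51, with all 20 above 0. AFP, the fetal serum protein of yolk sac and liver, had 55.0, 13.2 and 320 RPKM in QQ and 46.3, 7.13 and 132 RPKM in WT embryos. Sclerotome and cartilage markers had 11 of 15 above 0 (257 to 275 RPKM in QQ, 222 to 271 in WT), endothelial markers 8 of 12 (99.2 to 109 in QQ, 96.6 to 97.2 in WT), notochord markers 5 of 6 (28.7 to 39.7 in QQ, 27.2 to 29.9 in WT) and trophoblast markers 5 of 9 (154 to 231 in QQ, 151 to 169 in WT). Leaving out each library in turn gave 8 to 12, 6 to 9, 3 to 5 and 4 to 6 above 0, in that order. Of all tested rows, 49.7% were above 0. HBB had 0 reads in QQ replicate 2, and 3 erythroid markers had none in at least 1 library, while every marker with a row had reads in some library. SOX17, HAPLN1, MATN1 and ACAN each stood in 2 lists. The part of these tissues in the matrix values was not tested.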

How the data were processed

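Values came from 1 deposited table. For each transcript row and library, per the file headers, it lists a count of uniquely mapped reads, the percent of the row with coverage, and an RPKM made by the authors. Dashes were read as 0. Reads were placed on Sscrofa 10.2, per the submitters' processing notes. The aligner, the counter and any use of strand were not given in the sources used here; for that reason reads of overlapping or antisense genes cannot be told apart. Library totals were 12.2 to 13.5 (in units of 1000000 reads), and the counts of any 2 libraries differed by more than counting error.

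The main test was edgeR 4.0.16 (R 4.3.3) on all rows: TMM scaling, filterByExpr with a count of 10 and a total of 15 as minimum, glmQLFit without robust estimation, and Benjamini-Hochberg adjustment over 13957 rows with a threshold of 0.05. The members and lists were chosen with earlier results of these data known. Symbols came from deposited protein accessions, KEGG matches or descriptions, through a RefSeq table of another build (Sscrofa 11.1) used only for names and gene order. Named were FN1, COL3A1, the 12 rows of highest mean RPKM, the 8 of smallest p, the most-read row of each laminin, nidogen, fibrillin and fibulin gene, the 2 smallest-p genes of each supporting list, and VRTN; 1 such row, kept in the fits and counts, is not reported here. Other rows were named after their values were seen, as further rows of named genes or to complete a family or list. Alternatives were DESeq2 1.42.0, limma 3.58.1 on log2(RPKM + 0.5), limma with quantile scaling, median-ratio scaling, no filter, a mean of at least 2 RPKM, a length trend removed by loess (span 0.4, without TMM), the replicate block and leaving out each library. Rows summed per gene, and DESeq2 without each library, were added after seeing the data. Simulated counts served to check both tools. No libraries agreed within sampling noise (chi-square per degree of freedom at least 7.54).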

Additional observations from a re-analysis of the deposited data

How the results depend on the processing

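With edgeR or limma no member passed the adjusted threshold under any setting run. DESeq2 called 2 higher, and 0 to 4 when each library was left out. At an unadjusted p under 0.05, the 12 higher rows (17.6%, against 11% of all rows) became 4 with rows summed (7.84%, against 11%). Leaving out each library gave 4 to 17 (5.71% to 24.6%, while the share of all rows itself ran from 5.02% to 14.7%). The 2 lower rows (2.94%, against 9.3%) became 0 with rows summed, 1 under DESeq2, the filter at 2 RPKM, median-ratio scaling or the replicate block, and 0 to 4 without each library (0% to 5.71%, against 2.7% to 11%). For the 5 supporting lists, the 16 higher genes became 5 to 20 (3.7% to 14.8%) and the 5 lower genes 0 to 10 (0% to 7.41%) without each library, beside the same shares of all rows. The 5 lower genes became 3 under DESeq2, with the filter at 2 RPKM and under the replicate block, and 2 with limma on log2 RPKM. Deviations of same-numbered embryos from their group means had correlations of -0.191, 0.213 and -0.0558. Such values cannot show whether these embryos shared a litter or dam, which the labels do not name. The replicate block, with 9 higher member rows and 0 adjusted calls, was therefore not read as a pairing by design. The members' median kept its sign throughout, at 0.11 to 0.27 without each library.

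Of 644 values of 44 named rows, 21 turned direction and 33 rows never did. With the length trend removed, log2 fold changes were -0.0652 for LAMB1, -0.0613 for FBLN2 (4122 bp) and -0.00227 for FBLN7. Each of these lay above the median of all tested rows in that setting, which was itself -0.0757. Under quantile scaling they were 0.0627 for COL18A1 (1027 bp), 0.0532 for COL2A1 and -0.0378 for FBLN7. Summed over rows they were 0.035 for COL18A1 and -0.0888 for COL14A1, and limma on log2 RPKM gave 0.0165 for EFEMP2. Leaving out each library gave -0.471 to 0.168 for COL1A1 (433 bp), -0.0545 to 0.269 for LAMB1, -0.18 to 0.0413 for EFEMP2, -0.0594 to 0.131 for FBLN2 and -0.646 to 0.179 for FBLN5. It gave -0.262 to 0.269 for FBLN7, -0.0572 to 0.171 for LAMA1 and -0.0492 to 0.255 for LAMA2. The causes were not tested. Depth left 28 member rows untested.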
